A study of Homo sapiens with 8 samples.

Results

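Of the 58336 genes in the deposited counts, 7 genes best known from blood cells were followed: PTPRC, IL7R, SLAMF7, MARCO, LAPTM5, CD68 and CTSS. They were picked by symbol because earlier results of these data had shown their levels to differ, so their own values are given here as descriptions with a standard error and no p-value. Whether a gene passed the threshold used for all genes is stated only as a description of the fit, beside the share of all genes that did. RNA had been sequenced in 8 libraries from SUM159, a long-established cell line of human triple-negative breast cancer. The lung-recovered group (3 libraries) was clone 1 of ITGB4-low cells that carried the red fluorescent protein tdTomato. Per the labels' protocols these cells had been given to mice by tail vein, bleomycin, which damages DNA and provokes lung inflammation, had been placed in the trachea, and the dissociated lungs had been held in culture overnight before tdTomato-positive cells were sorted. The ITGB4-low group (3 libraries) was the same clone 1 grown in dishes, with no mouse and no bleomycin, and the ITGB4-high group (2 libraries) was ITGB4-high cells grown in dishes. No lung-recovered library came from mice without bleomycin, so passage through the lung, bleomycin, overnight culture and sorting cannot be told apart. Every ITGB4-low library came from 1 clone, so the clone and the low ITGB4 state cannot be told apart either. The sources used here do not give the strain or age of the mice.

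In blood, PTPRC (CD45) is the receptor tyrosine phosphatase that marks nearly every nucleated blood cell and keeps Src-family kinases such as LCK in a state ready to signal. IL7R is the alpha chain that T and B cell precursors use to receive interleukin 7, and SLAMF7 is a homophilic receptor of natural killer and plasma cells. MARCO is a scavenger receptor of lung macrophages, LAPTM5 a lysosomal membrane protein that sends immune receptors to degradation, CD68 a glycoprotein of macrophage lysosomes, and CTSS the cysteine protease that trims the invariant chain of MHC class II. A bulk library sums over cells, so a change in the number of expressing cells and a change in RNA per cell cannot be told apart.

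The RefSeq table of promoters (build GRCh38.p14), from 250 bases before to 50 bases after a start site, held 5 of the 7 genes. It had no entry for SLAMF7 or CTSS. The windows of PTPRC (chr1:198638790-198639089, plus strand), IL7R (chr5:35856641-35856940, plus strand), LAPTM5 (chr1:30757725-30758024, minus strand) and CD68 (chr17:7579388-7579687, plus strand) are shown because they share a motif, and each reads 5′ to 3′ on the strand of its gene, with the searched motifs in capitals:

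PTPRC: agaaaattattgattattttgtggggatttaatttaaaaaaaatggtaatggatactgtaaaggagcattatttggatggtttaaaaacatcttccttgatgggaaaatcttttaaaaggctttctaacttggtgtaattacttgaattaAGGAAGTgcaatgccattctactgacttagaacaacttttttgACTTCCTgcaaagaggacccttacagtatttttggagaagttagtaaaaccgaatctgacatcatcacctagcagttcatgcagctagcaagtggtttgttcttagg

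IL7R: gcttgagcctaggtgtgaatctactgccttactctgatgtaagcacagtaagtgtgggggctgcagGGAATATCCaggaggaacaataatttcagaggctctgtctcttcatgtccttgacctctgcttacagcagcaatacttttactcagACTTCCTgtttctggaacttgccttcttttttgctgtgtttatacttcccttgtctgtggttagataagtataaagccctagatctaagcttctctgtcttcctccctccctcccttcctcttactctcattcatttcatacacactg

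LAPTM5: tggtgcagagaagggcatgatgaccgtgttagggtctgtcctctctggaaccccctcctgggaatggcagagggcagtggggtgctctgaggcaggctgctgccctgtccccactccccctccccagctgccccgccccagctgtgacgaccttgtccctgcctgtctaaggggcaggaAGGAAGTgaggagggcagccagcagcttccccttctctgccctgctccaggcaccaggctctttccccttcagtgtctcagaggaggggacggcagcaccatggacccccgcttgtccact

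CD68: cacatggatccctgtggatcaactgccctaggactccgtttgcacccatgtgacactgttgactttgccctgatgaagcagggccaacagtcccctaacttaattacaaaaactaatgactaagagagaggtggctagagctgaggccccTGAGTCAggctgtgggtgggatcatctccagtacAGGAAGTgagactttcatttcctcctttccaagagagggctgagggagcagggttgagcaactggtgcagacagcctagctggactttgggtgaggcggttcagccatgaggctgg

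The capitals AGGAAGT, or ACTTCCT on the other strand, are the core bound by ETS factors, the family of the blood regulator PU.1. This core was added after the windows had been read. It occurred in 4 of the 5 windows, against 8.24% of 35116 promoter windows of the same length, and not in that of MARCO (chr2:118941944-118942243, plus strand). Because the core was chosen from these same windows, nothing is read from that contrast. The longer form GAGGAAGT, which overlaps it and is held by 2.59% of windows, was in none of the 5. TGAGTCA in the CD68 window is an AP-1 site in its letters (TGANTCA, 7.71% of windows), and GGAATATCC in the IL7R window reads as GGANNTTCC, part of an NF-kB site, on the other strand (4.56%). Searches on both strands for GAAANNGAA (interferon response, 8.11% of windows) and TTCNNNGAA (STAT, 7.66%) found nothing in these 5 windows. The windows held 1 CpG in PTPRC, 0 in IL7R, 6 in MARCO, 5 in LAPTM5 and 2 in CD68, against a median of 14 over all windows. Of all windows, 11% had no more CpG than that of PTPRC, 3.96% than IL7R, 36.8% than MARCO, 33.7% than LAPTM5 and 18.2% than CD68. A match of letters is a description and does not show that a factor was bound.

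Library totals ran from 20.41 to 27.22 M counts, so 1 count was worth 0.0376 to 0.0486 CPM (counts scaled to the library total, with TMM scaling). After a filter on low counts 15220 genes were tested, and all 7 genes passed it. The filter asked for about 10 counts in at least 2 libraries, which CTSS reached only in the lung-recovered libraries, SLAMF7 only in ITGB4-low, and PTPRC in both groups of clone 1 cells. A gene is called higher or lower below at an edgeR quasi-likelihood adjusted p under 0.05 over all genes tested. ITGB4 itself was at 401, 375.5 and 407 CPM in the lung-recovered libraries, 5.29, 7.46 and 9.13 CPM in ITGB4-low and 419.9 and 376 CPM in ITGB4-high, so the lung-recovered libraries, labelled ITGB4 low, went against that label in their RNA. Of the markers of the SUM159 line, VIM, CD44, EGFR and AXL were counted in all 8 libraries, ESR1 had 0 to 3 counts, and PGR and CDH1 had 0. ERBB2, the other listed marker, was at 63.4 to 71.6 CPM. The comparisons share libraries (ITGB4-low is the control of the first and is itself compared with ITGB4-high), so their values stand side by side and are not independent of each other.

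Per length of exon, LAPTM5 was far above the other 6 genes. Its mean level was 15.3, 30.9 and 39.4 CPM per kb in lung-recovered, ITGB4-low and ITGB4-high cells, higher than 74.8%, 88.6% and 91.4% of 12475 tested protein-coding genes. In lung-recovered cells the means then ran in the order CD68 (2.25 CPM per kb), IL7R (1.90), MARCO (0.700), CTSS (0.222), PTPRC (0.0852) and SLAMF7 (0.0197). In ITGB4-low cells the order was CD68 (1.91 CPM per kb), SLAMF7 (0.784), MARCO (0.379), IL7R (0.374), PTPRC (0.0943) and CTSS (0.0630). In ITGB4-high cells it was CD68 (1.24 CPM per kb), IL7R (1.01), MARCO (0.349) and CTSS (0.0361), with PTPRC and SLAMF7 at 0. The libraries of CD68 and IL7R overlapped in lung-recovered and ITGB4-high cells, and in ITGB4-low cells so did those of MARCO and IL7R and those of PTPRC and CTSS. The other 6 genes stood above at most 28.5% of those protein-coding genes in any group. Most exon bases of CD68 (81.7%) are shared with another annotated transcript, so its place in these orders is uncertain.

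**Figure D1:**
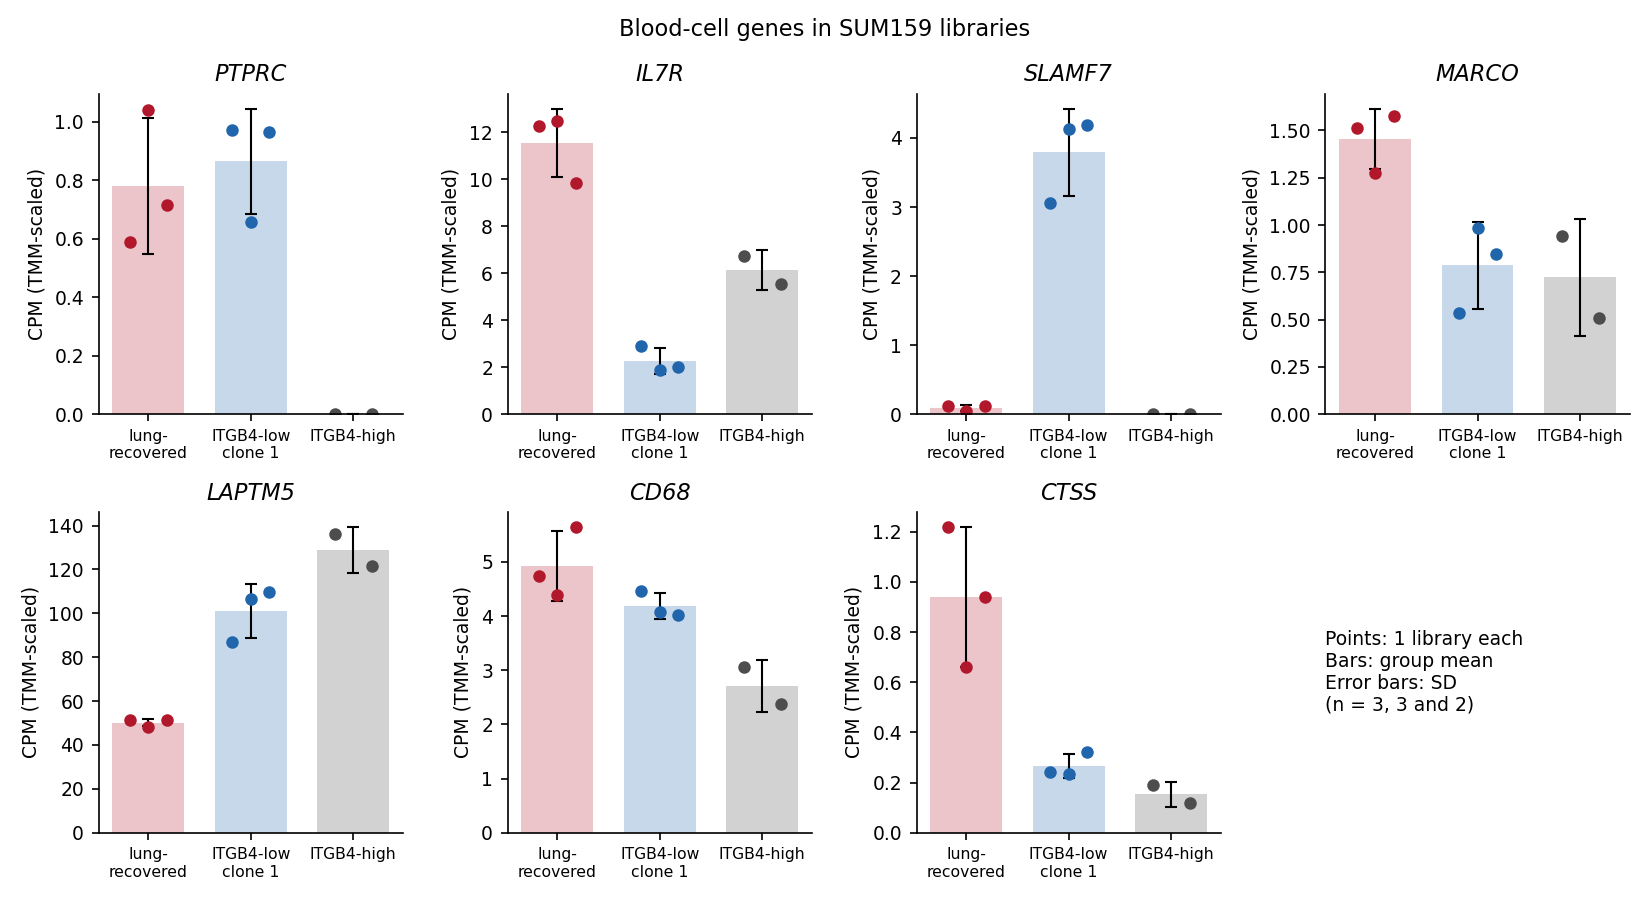
CPM of each of the 7 genes in each of the 8 libraries, as points, with bars for the group mean and error bars for the SD (n = 3, 3 and 2), lung-recovered left, ITGB4-low in the middle and ITGB4-high right. SLAMF7 separates ITGB4-low (3.06 to 4.18 CPM) from both other groups, IL7R is lowest in ITGB4-low, and LAPTM5 lies between 48.2 and 136 CPM throughout.

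Of the surface receptors, PTPRC and SLAMF7 were not counted in ITGB4-high cells, IL7R was lowest in ITGB4-low and MARCO was highest in lung-recovered cells. PTPRC (ENSG00000081237, hg38 chromosome 1, 198638457 to 198757476) was counted 14, 22 and 19 times in the lung-recovered libraries, 20, 14 and 24 times in the ITGB4-low libraries and 0 times in both ITGB4-high libraries. The 2 groups of clone 1 cells overlapped and the ITGB4-high libraries lay below both. In CPM the means were 0.781 ± 0.233 in lung-recovered and 0.865 ± 0.180 in ITGB4-low cells (SD, n = 3 each), a log2 fold change of -0.17 (SE 0.33). Against a floor of 3 counts over both ITGB4-high libraries, PTPRC was at least 13.4-fold higher in lung-recovered and at least 15.1-fold higher in ITGB4-low cells. The fold cannot be bounded from above because ITGB4-high had no count.

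IL7R (ENSG00000168685, chromosome 5, 35852695 to 35879603) had 12.3, 12.5 and 9.85 CPM in the lung-recovered libraries, 2.91, 1.88 and 2.01 CPM in ITGB4-low and 6.75 and 5.53 CPM in ITGB4-high. The 3 groups were apart from each other, with ITGB4-high in the middle. The log2 fold change was 2.35 (SE 0.16) between lung-recovered and ITGB4-low cells and 0.90 (SE 0.15) between lung-recovered and ITGB4-high cells. Between ITGB4-low and ITGB4-high cells it was -1.45 (SE 0.19). In counts, IL7R had 292, 264 and 262 in lung-recovered cells, so its values rest on more reads than those of PTPRC.

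SLAMF7 (ENSG00000026751, chromosome 1, 160739057 to 160754821) was counted 3, 1 and 3 times in the lung-recovered libraries, 63, 88 and 104 times in ITGB4-low and 0 times in both ITGB4-high libraries. Every ITGB4-low library was far above every other library. The mean level was 0.0954 ± 0.0422 CPM in lung-recovered and 3.79 ± 0.633 CPM in ITGB4-low cells (n = 3 each), which is 39.0-fold lower in the lung-recovered cells (log2 fold change -5.21, SE 0.35). ITGB4-low cells were at least 66.4-fold above ITGB4-high cells. Lung-recovered cells, with 7 counts in all, were at least 1.70-fold above ITGB4-high cells. The call in that last pair ended without ITGB4-high replicate 1 or 2 and without lung-recovered replicate 1 or 3. The fitted log2 values were then 4.27, 4.28, 4.08 and 4.14, and they depend on the prior count because ITGB4-high had no count.

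MARCO (ENSG00000019169, chromosome 2, 118942166 to 118994660) had 1.51, 1.28 and 1.58 CPM in the lung-recovered libraries, 0.534, 0.985 and 0.845 CPM in ITGB4-low and 0.943 and 0.507 CPM in ITGB4-high. All lung-recovered libraries lay above all others, and the 2 dish-grown groups overlapped. The log2 fold change was 0.88 (SE 0.29) against ITGB4-low and 1.00 (SE 0.32) against ITGB4-high. The first call ended without ITGB4-low replicate 1 (log2 fold change 0.68) or 3 (0.93), without lung-recovered replicate 1 (0.86) or 3 (0.82), and with DESeq2 (0.89). The second ended without ITGB4-high replicate 2 (0.62). Between ITGB4-low and ITGB4-high the log2 fold change of 0.12 (SE 0.36) turned to -0.26 without ITGB4-high replicate 2 and to -0.06 without ITGB4-low replicate 2, so no direction is given for that pair.

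The lysosomal genes were all present in dish-grown and lung-recovered cells. LAPTM5 (ENSG00000162511, chromosome 1, 30732469 to 30757820) had 51.2, 48.2 and 51.2 CPM in the lung-recovered libraries, 87.1, 106 and 109.9 CPM in ITGB4-low and 136 and 122 CPM in ITGB4-high. The groups did not overlap, and the order was lung-recovered below ITGB4-low below ITGB4-high. The mean was 50.2 ± 1.76 CPM in lung-recovered and 101 ± 12.3 CPM in ITGB4-low cells (n = 3 each), a log2 fold change of -1.01 (SE 0.07). It was -1.36 (SE 0.08) for lung-recovered against ITGB4-high and -0.35 (SE 0.07) for ITGB4-low against ITGB4-high. LAPTM5 was the only one of the 7 genes whose mean level was lowest in lung-recovered cells.

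CD68 (ENSG00000129226, chromosome 17, 7579467 to 7582113) had 4.75, 4.40 and 5.64 CPM in the lung-recovered libraries, 4.47, 4.08 and 4.02 CPM in ITGB4-low and 3.06 and 2.38 CPM in ITGB4-high. Lung-recovered and ITGB4-low libraries overlapped, and both lay above ITGB4-high. The log2 fold change was 0.24 (SE 0.15) for lung-recovered against ITGB4-low, 0.62 (SE 0.18) for ITGB4-low against ITGB4-high and 0.86 (SE 0.17) for lung-recovered against ITGB4-high. Without ITGB4-high replicate 2 the value for ITGB4-low against ITGB4-high was 0.44 and no longer called. Of the 2189 exon bases of CD68, 81.7% are shared with the transcript AC016876.2 on the same strand, which had 0 to 3 counts per library, and 6.85% lie opposite AC016876.1, which had 140 to 245. The sources used here do not say how the authors' counting split shared reads, so the level of CD68 is uncertain. The other 6 genes share no exon base with another annotated gene.

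CTSS (ENSG00000163131, chromosome 1, 150730196 to 150765957) was counted 29, 14 and 25 times in the lung-recovered libraries, 5, 5 and 8 times in ITGB4-low and 5 and 3 times in ITGB4-high. In CPM these were 1.22, 0.662 and 0.940 in lung-recovered, 0.243, 0.235 and 0.322 in ITGB4-low and 0.189 and 0.117 in ITGB4-high. The lung-recovered libraries were above all others, while the 2 dish-grown groups were a few counts apart. The log2 fold change was 1.80 (SE 0.39) against ITGB4-low and 2.59 (SE 0.48) against ITGB4-high, and 0.79 (SE 0.61) for ITGB4-low against ITGB4-high.

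Counted together, 5 of the 7 genes were called between lung-recovered and ITGB4-low cells (IL7R, MARCO and CTSS higher, SLAMF7 and LAPTM5 lower), against 30.1% of all genes tested (14.7% higher, 15.4% lower). The same 5 did not overlap between those groups, against 43.3% of all genes (21.6% in each direction). Between ITGB4-low and ITGB4-high 5 were called (PTPRC, SLAMF7 and CD68 higher, IL7R and LAPTM5 lower), against 56.2% of all genes (28.6% higher, 27.6% lower). These 5 and CTSS, which was higher, did not overlap, against 68.7% of all genes (34.8% higher, 33.9% lower). Between lung-recovered and ITGB4-high all 7 were called, LAPTM5 lower and the other 6 higher, against 51.2% of all genes (26.2% higher, 25.0% lower). None of the 7 overlapped there, against 66.8% without overlap among all genes (34.2% higher, 32.6% lower). Nothing is read from these shares, because the genes had been chosen from these contrasts.

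**Figure D2:**
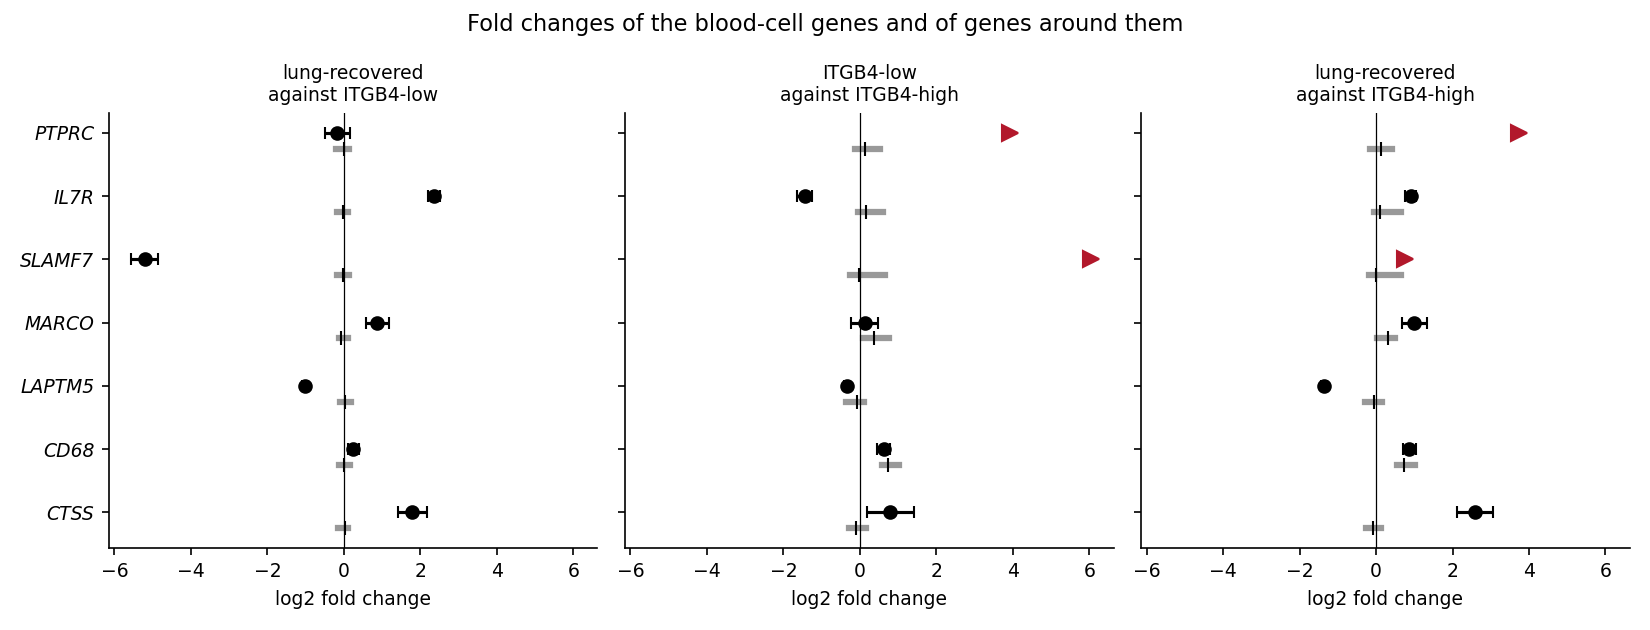
Log2 fold change of each of the 7 genes in the 3 comparisons. Black points with bars are fold changes ± SE, red triangles are lower bounds against ITGB4-high groups with 0 counts, and the grey bar and tick give the quartiles and median of the tested genes within 5 Mb. IL7R is at 2.35 and SLAMF7 at -5.21 between lung-recovered and ITGB4-low cells, and CD68 at 0.62 lies within the grey bar of its region between ITGB4-low and ITGB4-high.

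The lists that follow, of partners and relatives of the 7 genes and of blood-cell markers, were also drawn up with earlier results of these data known, and their counts are read against the shares of all genes given above. The median log2 fold change of all tested genes was 0.0003 (lung-recovered against ITGB4-low), 0.0009 (ITGB4-low against ITGB4-high) and 0.005 (lung-recovered against ITGB4-high). Adjusted p-values below are edgeR quasi-likelihood values over all genes tested, and they measure only the spread between these libraries, since the labels do not say which cultures or animals they came from.

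In the list of IL-7 and TSLP signalling (16 genes, 14 tested), 2 rose and 2 fell in lung-recovered against ITGB4-low cells (median 0.04), and 8 rose and 4 fell in ITGB4-low against ITGB4-high (median 0.28). Between lung-recovered and ITGB4-high 7 rose and 4 fell (median 0.18). IL7R pairs with IL2RG, the common gamma chain, to bind interleukin 7, and with CRLF2 to bind the epithelial cytokine TSLP. IL2RG had 1 to 5 counts in each library and was not tested. CRLF2 was at 6.76, 6.67 and 6.58 CPM in lung-recovered, 5.88, 6.10 and 6.12 CPM in ITGB4-low and 1.17 and 0.896 CPM in ITGB4-high cells. It was higher in ITGB4-low than in ITGB4-high (log2 fold change 2.54, SE 0.18, adjusted p = 4.14e-10) and not called between lung-recovered and ITGB4-low (0.14, adjusted p = 0.392).

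Both ligands were transcribed too. TSLP was at 3.44, 3.88 and 4.40 CPM in lung-recovered, 4.52, 5.11 and 5.67 CPM in ITGB4-low and 1.55 and 1.48 CPM in ITGB4-high. IL7 was at 1.64, 2.60 and 1.05 CPM in lung-recovered, 2.91, 2.16 and 2.74 CPM in ITGB4-low and 1.40 and 1.29 CPM in ITGB4-high. ITGB4-low libraries were above ITGB4-high for both ligands. TSLP rose by 1.75 (adjusted p = 1.82e-07) and IL7 by 0.95 (adjusted p = 0.00857) on the log2 scale in ITGB4-low against ITGB4-high. Neither was called between lung-recovered and ITGB4-low (-0.39, adjusted p = 0.0517, and -0.60, adjusted p = 0.0816).

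Of the 14 tested genes, the widest change in lung-recovered against ITGB4-low cells was that of STAT5A, a transcription factor that IL-7 and TSLP receptors activate. It was at 13.6, 16.1 and 15.0 CPM in lung-recovered, 0.243, 0.516 and 0.241 CPM in ITGB4-low and 0.792 and 0.390 CPM in ITGB4-high. All lung-recovered libraries were far above the dish-grown ones (log2 fold change 5.48, SE 0.21, adjusted p = 1.07e-13 against ITGB4-low). Its paralogue STAT5B was not called there (0.11, adjusted p = 0.147). The receptor kinase gene JAK1 had 181, 171 and 173 CPM in lung-recovered, 264, 265 and 271 CPM in ITGB4-low and 216 and 208 CPM in ITGB4-high, and fell in lung-recovered against ITGB4-low (-0.61, adjusted p = 5.15e-10). The feedback inhibitor SOCS2 rose (0.58, adjusted p = 9.55e-07) and BCL2 fell (-0.36, adjusted p = 0.000143) in that comparison. The other 10 tested genes of the list, PIM1 among them, were not called in it. JAK3, the kinase of IL2RG, had 0 counts in all 8 libraries.

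The SLAM family and its adaptors (11 genes) had 3 tested members, of which 1 rose and 2 fell in lung-recovered against ITGB4-low (median -0.17) and 3 rose in ITGB4-low against ITGB4-high (median 0.89) and in lung-recovered against ITGB4-high (median 1.31). SLAMF9 was at 2.27, 1.84 and 1.43 CPM in lung-recovered, 6.12, 4.41 and 4.75 CPM in ITGB4-low and 0.566 and 0.351 CPM in ITGB4-high, so that it was highest where SLAMF7 was. It fell by 1.47 on the log2 scale in lung-recovered against ITGB4-low (SE 0.20, adjusted p = 8.05e-06) and rose by 3.45 in ITGB4-low against ITGB4-high (SE 0.29, adjusted p = 4.22e-09). SLAMF8, an inhibitory member known from myeloid cells, was at 3.82, 4.16 and 3.91 CPM in lung-recovered, 3.16, 2.95 and 2.78 CPM in ITGB4-low and 1.70 and 1.48 CPM in ITGB4-high. It was higher in lung-recovered than in ITGB4-low (0.42, SE 0.15, adjusted p = 0.0417) and in ITGB4-low than in ITGB4-high (0.89, adjusted p = 0.000633).

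The third tested member, the kinase FYN, fell by 0.17 on the log2 scale in lung-recovered against ITGB4-low (adjusted p = 0.0193). The count of 3 called members there dropped to 1 without ITGB4-low replicate 2, ITGB4-low replicate 3 or lung-recovered replicate 2. The genes next to SLAMF7 on chromosome 1 include relatives, and all 7 protein-coding genes within 200 kb were too low to be tested. LY9, 41.3 kb away, had 2, 3 and 4 counts in lung-recovered, 6, 6 and 10 in ITGB4-low and 0 and 0 in ITGB4-high. CD244, 75.3 kb away, had 0, 1 and 0 counts in lung-recovered, 3, 2 and 1 in ITGB4-low and 0 in ITGB4-high. CD48, the ligand of CD244, had 0 counts in lung-recovered, 1, 0 and 1 in ITGB4-low and 0 in ITGB4-high. LY9 was in the same order as SLAMF7, at a lung-recovered to ITGB4-low ratio of 0.382 (exact 95% counting interval 0.155 to 0.863). The adaptors SH2D1A and SH2D1B had 0 counts in all 8 libraries.

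**Figure D3:**
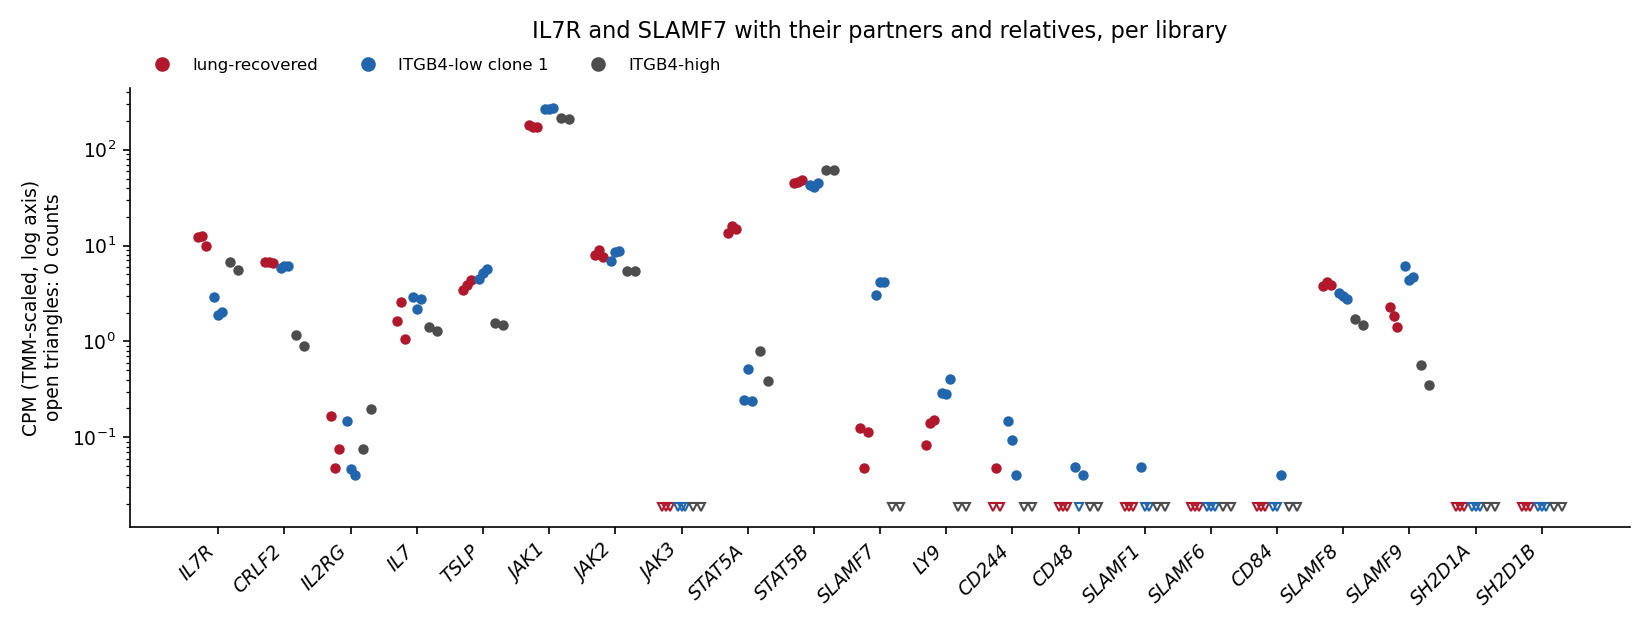
CPM in each library of IL7R and SLAMF7 with their partners and relatives, on a log axis, with 1 point per library (lung-recovered red and left, ITGB4-low blue, ITGB4-high grey and right) and open triangles for 0 counts. STAT5A is high in lung-recovered cells (13.6 to 16.1 CPM), CRLF2 is low in ITGB4-high, and SLAMF9 is highest in ITGB4-low.

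MARCO belongs with the scavenger receptors (17 genes, 9 tested), of which 2 rose and 3 fell in lung-recovered against ITGB4-low cells (median 0.01). Between ITGB4-low and ITGB4-high 5 rose and 1 fell (median 0.20), and between lung-recovered and ITGB4-high 5 rose and 1 fell (median 0.25). MSR1, the macrophage class A receptor closest to MARCO in kind, was counted 42, 38 and 40 times in lung-recovered, 1, 1 and 1 times in ITGB4-low and 0 and 2 times in ITGB4-high. The ratio was 37.3 for lung-recovered over ITGB4-low (exact 95% counting interval 12.5 to 184) and 43.8 over ITGB4-high (11.8 to 365). MSR1 passed the filter on low counts only through the lung-recovered libraries, so it had to differ, and its call, counted here and among the macrophage markers, is no support. CXCL16, a transmembrane chemokine that also binds oxidised lipoprotein, rose by 0.61 in lung-recovered against ITGB4-low (adjusted p = 0.00955). LRP1, a receptor for many ligands and protease complexes, was at 27.6, 31.5 and 27.2 CPM in lung-recovered, 88.1, 89.1 and 91.5 CPM in ITGB4-low and 31.5 and 29.3 CPM in ITGB4-high, and fell by 1.64 in lung-recovered against ITGB4-low (adjusted p = 1.99e-14).

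Among cathepsins and cystatins (23 genes, 15 tested), 6 rose and 3 fell in lung-recovered against ITGB4-low cells (median 0.21), 7 rose and 4 fell in ITGB4-low against ITGB4-high (median 0.15), and 6 rose and 3 fell in lung-recovered against ITGB4-high (median 0.10). CTSH, an aminopeptidase, was at 6.68, 6.53 and 6.65 CPM in lung-recovered, 0.631, 1.03 and 0.644 CPM in ITGB4-low and 8.15 and 6.39 CPM in ITGB4-high. Its log2 fold change was 3.11 (SE 0.20, adjusted p = 1.76e-10) against ITGB4-low, and it was not called between lung-recovered and ITGB4-high (-0.14, adjusted p = 0.453). CTSC, which activates granule proteases in blood cells, was at 151, 144 and 141 CPM in lung-recovered, 99.1, 92.9 and 100 CPM in ITGB4-low and 214 and 223 CPM in ITGB4-high. CTSC rose by 0.58 in lung-recovered against ITGB4-low (adjusted p = 5.37e-09).

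The broadly expressed CTSB (0.25, adjusted p = 0.00033) and CTSL (0.44, adjusted p = 5.82e-06) rose by less in lung-recovered against ITGB4-low. Of the inhibitors that hold these proteases in check, CSTB rose by 0.24 (adjusted p = 0.00108) and CST3 was not called (-0.04, adjusted p = 0.573). CD74, the invariant chain that CTSS trims in antigen-presenting cells, had 0 to 2 counts per library.

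LAPTM5 stands among lysosomal membrane proteins (17 genes, 15 tested), of which 2 rose and 1 fell in lung-recovered against ITGB4-low cells (median 0.03). Between ITGB4-low and ITGB4-high 8 rose and 4 fell (median 0.16), and between lung-recovered and ITGB4-high 9 rose and 2 fell (median 0.17). The paralogues LAPTM4A (0.04, adjusted p = 0.626) and LAPTM4B (0.08, adjusted p = 0.176) were not called in lung-recovered against ITGB4-low cells. LAPTM4A was at 158, 168 and 161 CPM in lung-recovered, 144, 163 and 167 CPM in ITGB4-low and 122 and 127 CPM in ITGB4-high. LAMP3, a lysosomal protein known from mature dendritic cells, rose in lung-recovered against ITGB4-low (1.98, SE 0.32, adjusted p = 6.38e-05), at 1.60, 1.51 and 1.69 CPM against 0.437, 0.234 and 0.523 CPM.

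For PTPRC, the list of receptor phosphatases and Src kinases (25 genes, 20 tested) had 6 that rose and 5 that fell in lung-recovered against ITGB4-low (median 0.07). In ITGB4-low against ITGB4-high 6 rose and 9 fell (median 0.08), and in lung-recovered against ITGB4-high 6 rose and 6 fell (median 0.01). PTPRB, called higher in lung-recovered against both other groups, reached the filter on low counts only through the lung-recovered libraries. Its calls are no support. PTPRE was at 19.8, 21.7 and 20.5 CPM in lung-recovered, 2.77, 4.60 and 4.75 CPM in ITGB4-low and 13.5 and 12.2 CPM in ITGB4-high (log2 fold change 2.34 for lung-recovered against ITGB4-low, SE 0.13, adjusted p = 1.59e-11). Among the kinases that PTPRC acts on in blood cells, LYN rose in lung-recovered against ITGB4-low (0.57, adjusted p = 8.14e-08) and LCK had 0 counts apart from 2 in 1 ITGB4-low library. CSK, which sets the inhibitory mark that PTPRC removes, also rose there, by 0.36 (adjusted p = 3.02e-05). Its membrane anchor PAG1 was not called there (-0.15, adjusted p = 0.200). PTPRCAP, the protein that binds PTPRC in lymphocytes, had 0 counts in all 8 libraries.

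Most myeloid and lymphocyte markers, of the cells from which these genes are known, had at most 3 counts over a group. In lung-recovered, ITGB4-low and ITGB4-high cells this held for 16, 18 and 19 of 26 myeloid markers. It held for 19, 18 and 20 of 23 lymphocyte markers and for 9, 8 and 9 of 21 pan-leukocyte genes. Host cells in the lung-recovered libraries would be mouse cells, and hg38 is the only genome build named. Counts of these human markers, and of the lung markers below, therefore cannot measure host cells. Whether mouse reads entered the counts was not tested. Of 26 macrophage and myeloid markers, 12 had 0 counts in all 8 libraries, among them C1QA, C1QB, C1QC, TYROBP, AIF1, SPI1, FCGR1A and VSIG4, and 4 were tested. Their summed level was 11.9 to 12.6 CPM in lung-recovered, 17.3 to 24.4 CPM in ITGB4-low and 23.7 to 25.8 CPM in ITGB4-high libraries, and CD33 held most of it. Without CD33 the other 25 markers summed to 3.27 to 3.74 CPM in lung-recovered, 1.02 to 1.64 CPM in ITGB4-low and 1.77 to 1.83 CPM in ITGB4-high, so this sum was highest in the lung-recovered libraries, as MARCO and CTSS were, and its part in their levels was not tested. Without MSR1 as well the sums were 1.75 to 1.97 CPM in lung-recovered, 0.971 to 1.59 CPM in ITGB4-low and 1.75 to 1.77 CPM in ITGB4-high. CD33, a sialic-acid receptor of myeloid cells, was at 8.65, 8.37 and 9.29 CPM in lung-recovered, 16.3, 19.2 and 23.0 CPM in ITGB4-low and 21.9 and 23.9 CPM in ITGB4-high. It fell in lung-recovered against ITGB4-low (-1.16, SE 0.11, adjusted p = 6.09e-08) and was not called between ITGB4-low and ITGB4-high (-0.23, adjusted p = 0.0767). In all, 1 of the 4 tested markers (MSR1) rose and 1 (CD33) fell in lung-recovered against ITGB4-low (median 1.32), 0 rose and 1 fell in ITGB4-low against ITGB4-high (median -0.01, with 2 calls without ITGB4-low replicate 3), and 1 rose and 2 fell in lung-recovered against ITGB4-high (median -0.10). S100A9, called lower in both comparisons with ITGB4-high, reached the filter on low counts only through the ITGB4-high libraries, so its calls are no support.

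Of 23 lymphocyte and plasma cell markers, 8 had 0 counts in all 8 libraries, among them CD3E, CD8A and MS4A1. SDC1, which epithelial cells also express, was the only one tested, and the summed level was 91.6 to 102 CPM in lung-recovered, 32.0 to 39.0 CPM in ITGB4-low and 231 to 233 CPM in ITGB4-high. SDC1 rose in lung-recovered against ITGB4-low (1.41) and fell in ITGB4-low against ITGB4-high (-2.68) and in lung-recovered against ITGB4-high (-1.27). Without SDC1 the other 22 markers summed to 0.189 to 0.420 CPM in lung-recovered, 0.328 to 0.534 CPM in ITGB4-low and 0.264 to 0.507 CPM in ITGB4-high, and the groups overlapped.

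Among 21 pan-leukocyte genes, which tumour cells can also express, 3 had 0 counts throughout and 10 were tested. In lung-recovered against ITGB4-low 5 rose and 1 fell (median 0.65), in ITGB4-low against ITGB4-high 3 rose and 4 fell (median -0.48), and in lung-recovered against ITGB4-high 4 rose and 3 fell (median 0.64). RAC2, a GTPase of blood cells, was at 109, 117 and 107 CPM in lung-recovered, 56.0, 55.0 and 53.5 CPM in ITGB4-low and 81.8 and 75.9 CPM in ITGB4-high (1.02 in lung-recovered against ITGB4-low, adjusted p = 3.76e-12). HCLS1, a cortactin relative of blood cells, was at 3.82, 3.26 and 4.21 CPM in lung-recovered, 3.59, 5.39 and 5.31 CPM in ITGB4-low and 25.6 and 23.3 CPM in ITGB4-high. HCLS1 was thus higher in ITGB4-high, in which PTPRC had 0 counts, whereas LCP1, a blood-cell plastin, was lower there, at 203, 202 and 201 CPM in lung-recovered, 183, 202 and 206 CPM in ITGB4-low and 108 and 103 CPM in ITGB4-high. In ITGB4-low against ITGB4-high LCP1 (0.90, adjusted p = 2.52e-11), DOCK2 (1.14, adjusted p = 0.00768) and EVI2B (0.63, adjusted p = 0.022) rose, and ITGAL, HCLS1, ARHGDIB and RAC2 fell. ITGAL reached the filter on low counts only through the ITGB4-high libraries. WAS, 1 of the 5 that rose in lung-recovered against ITGB4-low, reached it only through the lung-recovered libraries. The calls of ITGAL and WAS are therefore no support. The pan-leukocyte sum was 334 to 348 CPM in lung-recovered, 260 to 284 CPM in ITGB4-low and 226 to 241 CPM in ITGB4-high.

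**Figure D4:**
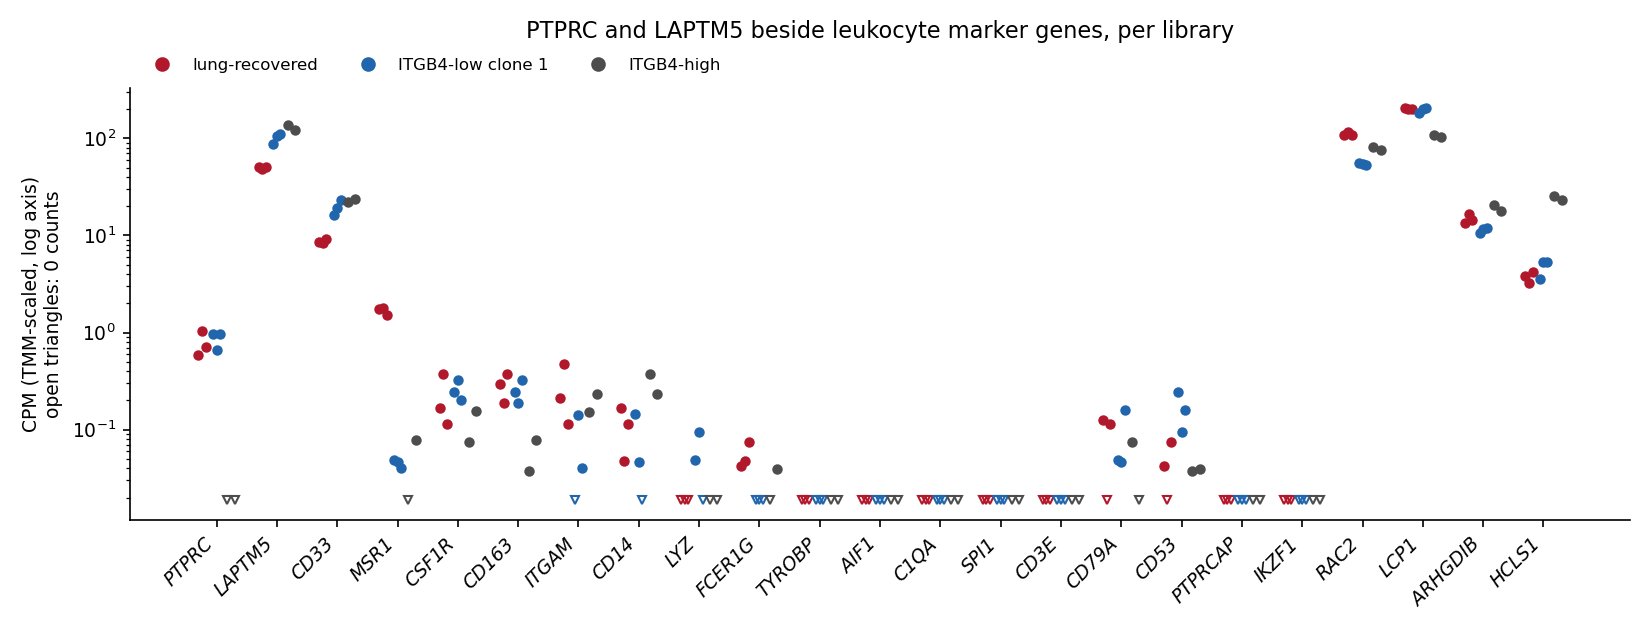
CPM of PTPRC, LAPTM5 and leukocyte marker genes in each library, on a log axis, with 1 point per library (lung-recovered red and left, ITGB4-low blue, ITGB4-high grey and right) and open triangles for 0 counts. C1QA, TYROBP, AIF1, SPI1 and CD3E are at 0 in all 8 libraries, while LAPTM5, CD33, RAC2 and LCP1 lie above 8 CPM in every library.

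Of 28 transcription factors of blood cells, 7 had 0 counts in all libraries, among them IRF4, IRF8 and GATA1, and 13 were tested. In lung-recovered against ITGB4-low 4 rose and 3 fell (median 0.19), in ITGB4-low against ITGB4-high 7 rose and 4 fell (median 0.16), and in lung-recovered against ITGB4-high 6 rose and 3 fell (median 0.05). The 11 calls in ITGB4-low against ITGB4-high became 6 without ITGB4-high replicate 1 or 2 and 7 without ITGB4-low replicate 2. BCL11A (1.72, adjusted p = 3.82e-05) and LMO2 (1.19, adjusted p = 0.0003) rose in lung-recovered against ITGB4-low cells. SPI1, the gene of PU.1, was at 0 throughout.

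Markers of the other cells of a lung were low, apart from genes that SUM159 cells also express. Endothelial markers summed to 8.82 to 10.3 CPM in lung-recovered, 10 to 12.6 CPM in ITGB4-low and 4.25 to 4.87 CPM in ITGB4-high, with 0 called higher and 2 called lower of 4 in lung-recovered against ITGB4-low (1 without ITGB4-low replicate 3 or lung-recovered replicate 3). Of these 4, TEK and ESAM reached the filter on low counts only through the ITGB4-low libraries, so a fall of either is no support. Lung epithelial markers summed to 0.865 to 1.34, 1.75 to 2.29 and 0.830 to 1.25 CPM in the same groups. Markers of fibroblasts and smooth muscle summed to 127 to 135 CPM in lung-recovered, 55.8 to 66.2 CPM in ITGB4-low and 50.7 to 58.1 CPM in ITGB4-high. Of 6 tested, 2 (COL1A1 and COL3A1) rose and 1 (PDGFRB) fell in lung-recovered against ITGB4-low. COL1A1 held most of the lung-recovered sum, at 98.3, 107 and 98.1 CPM. It was also counted in the dishes, at 29.3, 30.4 and 32.5 CPM in ITGB4-low and 30 and 26.3 CPM in ITGB4-high. Erythroid and platelet markers summed to at most 0.241 CPM in any library. LCP1 and RAC2 held most of the pan-leukocyte sum, and of these only RAC2 was called higher in lung-recovered against ITGB4-low. The fibroblast and pan-leukocyte sums were higher in lung-recovered than in ITGB4-low cells, as were IL7R, MARCO and CTSS, and the part of these sums in those levels was not tested.

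The surroundings of each gene were compared by the median log2 fold change of tested genes within 5 Mb. For CD68 the region itself was shifted: 133 tested genes had a median of 0.75 in ITGB4-low against ITGB4-high and 0.74 in lung-recovered against ITGB4-high, against 0.005 in lung-recovered against ITGB4-low. CD68 lay among its neighbours, with 91 of 133 genes above its 0.62 in ITGB4-low against ITGB4-high and 49 above its 0.86 in lung-recovered against ITGB4-high. Of those 133 genes, 109 were called higher and 2 lower in ITGB4-low against ITGB4-high. Of 18 tested genes within 200 kb of CD68, 16 were called higher and 0 lower there. EIF4A1, a translation initiation helicase 462 bases from CD68, was at 8.77, 8.12 and 4.79 CPM in lung-recovered, ITGB4-low and ITGB4-high cells. SENP3-EIF4A1, annotated as a separate gene 752 bases from CD68, had 0.37, 0.213 and 0.0572 CPM in the same groups. How reads shared between it and EIF4A1 were counted is not given, so the level of EIF4A1 is uncertain.

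**Figure D5:**
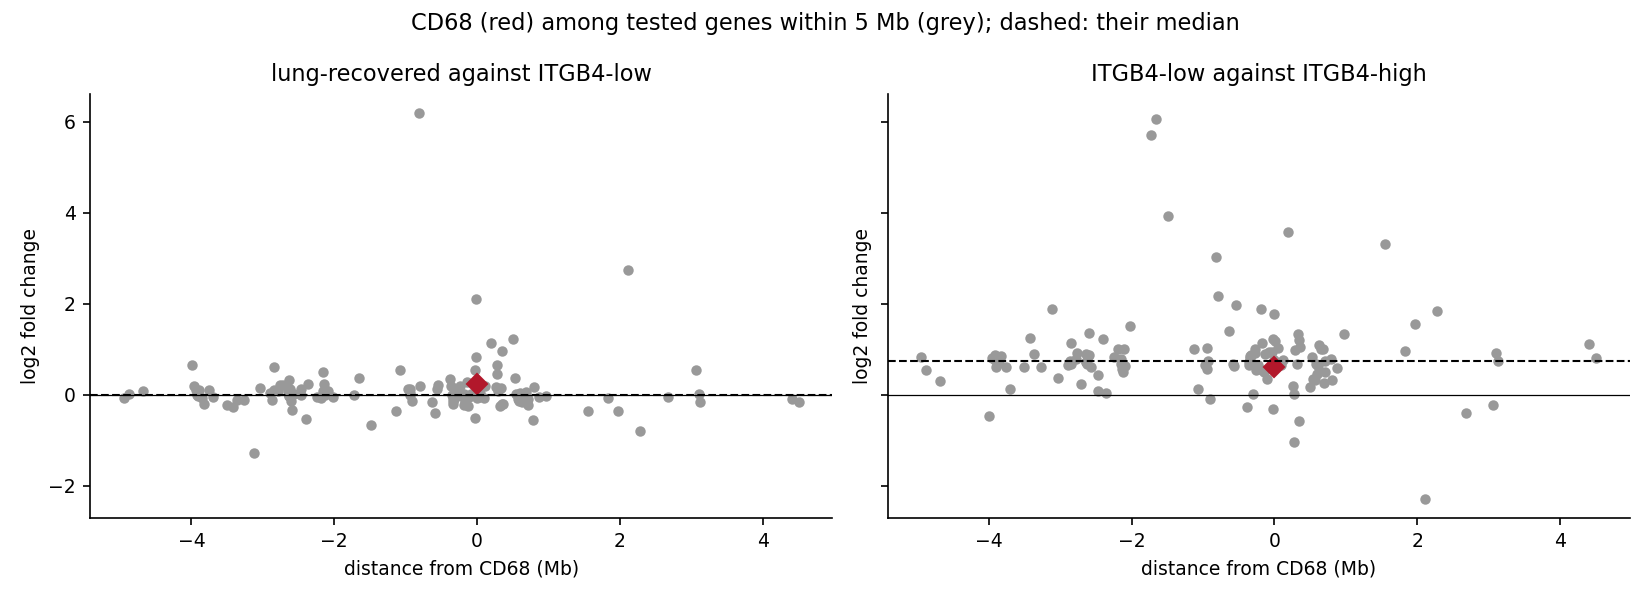
Log2 fold change of tested genes against their distance from CD68 in Mb, for lung-recovered against ITGB4-low (left) and ITGB4-low against ITGB4-high (right). Grey points are genes, the red diamond is CD68 and the dashed line is the median of the 133 genes, at 0.005 on the left and 0.75 on the right.

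The regions of the other 6 genes had medians between -0.09 and 0.37 in the 3 comparisons, the highest being that of MARCO in ITGB4-low against ITGB4-high. In lung-recovered against ITGB4-low, genes around IL7R had a median of -0.01, those around SLAMF7 of -0.0092, those around LAPTM5 of 0.03 and those around CTSS of 0.02. Next to LAPTM5, the heparan sulphate proteoglycan gene SDC3 went the other way, at 216 CPM in lung-recovered, 130.1 CPM in ITGB4-low and 129.8 CPM in ITGB4-high (0.73 in lung-recovered against ITGB4-low). Near CTSS, 3 of 8 tested genes rose and 0 fell in lung-recovered against ITGB4-low, with the survival gene MCL1 at 0.55, while CTSK, the collagen-degrading cathepsin 30.3 kb away, was at 0.210, 0.189 and 0.414 CPM in lung-recovered, 0.194, 0.188 and 0.161 CPM in ITGB4-low and 0.453 and 0.234 CPM in ITGB4-high. The only tested neighbour of IL7R within 200 kb, SPEF2, was at 0.323 CPM in lung-recovered, 0.645 CPM in ITGB4-low and 0.0383 CPM in ITGB4-high, so its order was not that of IL7R.

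Genes with the most similar patterns were found by the root mean square difference of centred log2 levels over the 8 libraries, among up to 11796 protein-coding genes that reached 1 CPM in some group. IL7R was closest to IRAK2, a kinase of interleukin 1 and Toll-like receptor signalling (49.1, 13.0 and 34.7 CPM in lung-recovered, ITGB4-low and ITGB4-high, distance 0.21), and then to DSP, the desmosomal plaque gene (75.2, 11.3 and 39.5 CPM, distance 0.29). LAPTM5 was closest to CD33 (8.77, 19.5 and 22.9 CPM, distance 0.112) and almost as close to TMPRSS15, the gene of the intestinal protease enteropeptidase (155, 278 and 347 CPM, distance 0.114). SLAMF7 was the furthest from its nearest gene, which was HEPH, a ferroxidase gene also highest in ITGB4-low (1.62, 21.0 and 1.12 CPM, distance 0.62). Levels had a prior count of 2 and were not scaled for the size of a change. A gene with wide changes and few counts, such as SLAMF7, can therefore lie far from genes of like order.

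PTPRC was nearest to EPHB6 (1.13, 1.48 and 0.0767 CPM, distance 0.24) and MARCO to VAV3 (5.42, 2.51 and 2.14 CPM, distance 0.19). CTSS was nearest to LDLRAD4 (1.79, 0.710 and 0.325 CPM, distance 0.23) and CD68 to PLPP5 (16.8, 13.9 and 9.68 CPM, distance 0.09). The 8 libraries share 3 groups, so a small distance mostly says that 2 genes have like group means.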

How the data were processed

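Libraries of poly(A) RNA kept strand information by dUTP, per the labels' protocols. The authors deposited raw counts, 1 whole number per gene and library, with no normalisation. STAR 2.7.1a and hg38 are named in the submitters' processing notes. The sources used here do not give the counting program, its strand setting or its annotation. Symbols and 1-based hg38 coordinates came from GENCODE 29, which held 58216 of 58336 identifiers, and promoters from RefSeq.

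All 8 libraries entered 1 edgeR 4.0.16 fit (R 4.3.3) with a term per group, TMM scaling and filterByExpr, which kept 15220 genes with 99.93% of counts. Each of 3 pairs of groups was tested by quasi-likelihood F with Benjamini-Hochberg adjustment, at 0.05. The standard error was the log2 fold change over the square root of F. Levels are CPM after TMM scaling. A fold against a group with 0 counts used a floor of 3 counts over the group. The ratios given for MSR1 and for the untested LY9 carry an exact binomial 95% interval. These intervals cover counting error only. The fit was tested on simulated data with known fold changes. Within groups, chi-square per degree of freedom was 1.60 to 6.58 between libraries, above sampling noise, and each was treated as 1 replicate. This spread does not show that the libraries came from separate cultures or animals. The labels call each library a biological replicate without saying which culture or animal it came from.

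The 7 genes and the lists were chosen with earlier results of these data known. Named list genes are up to 2 called higher and 2 called lower with the widest change per list and comparison and at least 1 CPM in a group, or direct partners of the 7 genes. Protein-coding genes within 200 kb and the nearest patterns were named too. LYN, CD74, JAK3, PTPRCAP, AC016876.1 and AC016876.2 and the markers named at 0 were picked after their values were seen, as were S100A9, WAS, TEK, ESAM and the genes left out of the marker sums. Alternatives were other scalings, filters and tools (limma-voom 3.58.1, DESeq2 1.42.0), a replicate block and each library left out.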

Additional observations from a re-analysis of the deposited data

How the results depend on the processing

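The 3 counts of all called genes stayed within 1.5 times under each of 17 alternatives. Of the member folds, 336 kept their direction and their side of the threshold, 11 lost their call and 2 reversed. MARCO in lung-recovered against ITGB4-low lost its call with DESeq2 (0.89), and with each library left out its log2 fold change ran from 0.68 to 1.06. Over the same omissions MARCO ran from -0.26 to 0.63 in ITGB4-low against ITGB4-high, reversing to -0.26 without ITGB4-high replicate 2 and to -0.06 without ITGB4-low replicate 2, and from 0.62 to 1.52 in lung-recovered against ITGB4-high. CD68 ran from 0.44 to 0.81 in ITGB4-low against ITGB4-high, and the fitted value of SLAMF7 in lung-recovered against ITGB4-high, which depends on the prior count, from 4.08 to 4.59. The causes were not tested. A filter of 1 CPM in 2 libraries left out PTPRC and CTSS, and a fit of only the groups compared left out SLAMF7 in lung-recovered against ITGB4-high and CTSS in ITGB4-low against ITGB4-high, so these have no value there.

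The replicate numbers gave no sign of pairing: same-numbered libraries correlated at -0.07 to 0.04, and not every library correlated best with its own number. These correlations are of deviations from means of 2 or 3 libraries, which the centring partly fixes, so they can show little about pairing. With the number as a block 4146, 7990 and 7213 genes were called (lung-recovered against ITGB4-low, ITGB4-low against ITGB4-high, lung-recovered against ITGB4-high), against 4586, 8554 and 7789, and the 7 genes kept their calls. Depth limits PTPRC, SLAMF7 in lung-recovered cells and CTSS, which rest on at most 29 counts per library.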
